A study of Drosophila melanogaster with 2 samples.

Results

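The vacuolar ATPase genes of Drosophila melanogaster are the protein-coding genes whose symbols begin with Vha. The Ensembl annotation of the fly genome holds 33 of them among 13968 protein-coding genes. By the known subunit nomenclature 13 encode subunits of the cytosolic V1 sector, 18 encode subunits of the membrane V0 sector and 2 encode accessory membrane proteins of the Ac45 type. Together they cover 14 subunit types, of which 5 have 1 gene and 9 have several paralogous genes.

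The vacuolar ATPase is a rotary proton pump that acidifies lysosomes, endosomes, secretory and synaptic vesicles, and in some insect epithelia it also energises the plasma membrane. V1 binds and splits ATP, a central shaft carries the rotation to a ring of proteolipid subunits in V0, and the ring moves protons past the large subunit a while peripheral stalks hold the outer parts still. In animals the subunits with several genes can differ between tissues, so that paralogues provide pumps of different cells or membranes.

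Peaks came from chromatin immunoprecipitation and sequencing of Fer3, a transcription factor with a basic helix-loop-helix domain, a class known to bind E-boxes (CANNTG). All samples were whole embryos of 6 to 24 h from 1 transgenic line that carries Fer3 joined to GFP at the C terminus, precipitated with an antibody against GFP after sonication to 200 to 800 bp. There was 1 group, with 2 biological replicates from separate biosamples of that line. No untagged line or other condition was compared, so the question asked of these genes was where tagged Fer3 gave peaks and at which paralogues. Whole embryos mix many cell types, so a weak peak in many cells and a strong peak in few cannot be told apart, and peak lists allow no check of the tissue by marker genes.

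The authors' lists hold 30000 peaks for replicate 1, 30000 for replicate 2, 30000 for the pooled replicates, and 5636 for the list kept after a cut on the irreproducible discovery rate, referred to as the reproducible list. A gene was counted as having a peak when a summit lay within 1 kb of an annotated start of one of its protein-coding transcripts. Signal values are those the authors gave each peak, on a scale the sources do not define. They are used to describe and rank peaks within 1 list, with rank 1 the highest. Sequencing depth is unknown, because the lists hold no read counts.

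A reproducible peak was present at 12 of the 33 Vha genes, 36.4% (exact Clopper-Pearson 95% interval 20.4 to 54.9), against a background of 26.2% of all protein-coding genes. The interval covers counting over genes only and includes the background. These 12 genes had 14 reproducible peaks. They covered 10 of the 14 subunit types, namely A, B, C, D, E, F and G of V1 and a, c and e of V0. No reproducible peak lay at a gene for subunit H, c'', d or Ac45.

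The sequences under the summits varied from AT-rich to GC-rich. The 6 printed below are the windows at the subunit A pair, where 1 paralogue was in the reproducible list and the other just missed it, and at subunits B, E, a and e. Each is written 5′ to 3′ on the strand of its Vha gene, reaches at most 50 bases to either side of the summit, and holds no annotated UTR. Capitals mark E-boxes (CANNTG). The sequences are from the RefSeq Release 6 genome, which has the dm6 coordinates of the peaks.
Vha68-1, chr2L:13004201-13004301, minus strand: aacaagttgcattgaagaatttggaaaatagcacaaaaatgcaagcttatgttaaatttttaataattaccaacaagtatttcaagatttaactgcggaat
Vha68-2, chr2L:12974225-12974321, plus strand: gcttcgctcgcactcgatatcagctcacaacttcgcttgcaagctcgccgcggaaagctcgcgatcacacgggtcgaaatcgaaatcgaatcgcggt
Vha55, chr3R:12627830-12627911, minus strand: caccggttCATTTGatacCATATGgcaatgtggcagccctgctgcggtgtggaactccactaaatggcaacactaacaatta
Vha26, chr3R:5591548-5591648, plus strand: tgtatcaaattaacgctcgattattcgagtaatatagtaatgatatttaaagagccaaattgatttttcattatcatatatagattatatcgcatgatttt
Vha100-1, chr3R:29131023-29131123, plus strand: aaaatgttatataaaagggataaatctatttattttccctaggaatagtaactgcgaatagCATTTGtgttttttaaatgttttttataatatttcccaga
VhaM9.7-c, chr3L:4186866-4186949, minus strand: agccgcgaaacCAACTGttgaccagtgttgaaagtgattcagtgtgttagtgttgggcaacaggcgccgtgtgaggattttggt
The Vha55, Vha68-2 and VhaM9.7-c sequences end at the base before an annotated start of the gene. E-boxes were present in 3 of the 6: Vha55 has CATTTG and CATATG, Vha100-1 has CATTTG and VhaM9.7-c has CAACTG. Of the 101-base windows at all reproducible peaks, 33.9% held an E-box. The 6 are a selection, those ending at a start are shorter than 101 bases, and Vha68-2 is outside the reproducible list. The 2 shares are therefore not comparable. The windows of Vha68-1, Vha26 and Vha100-1 are AT-rich, at 26.7%, 23.8% and 23.8% GC. The Vha68-2 sequence reads 56.7% GC.

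**Figure D1:**
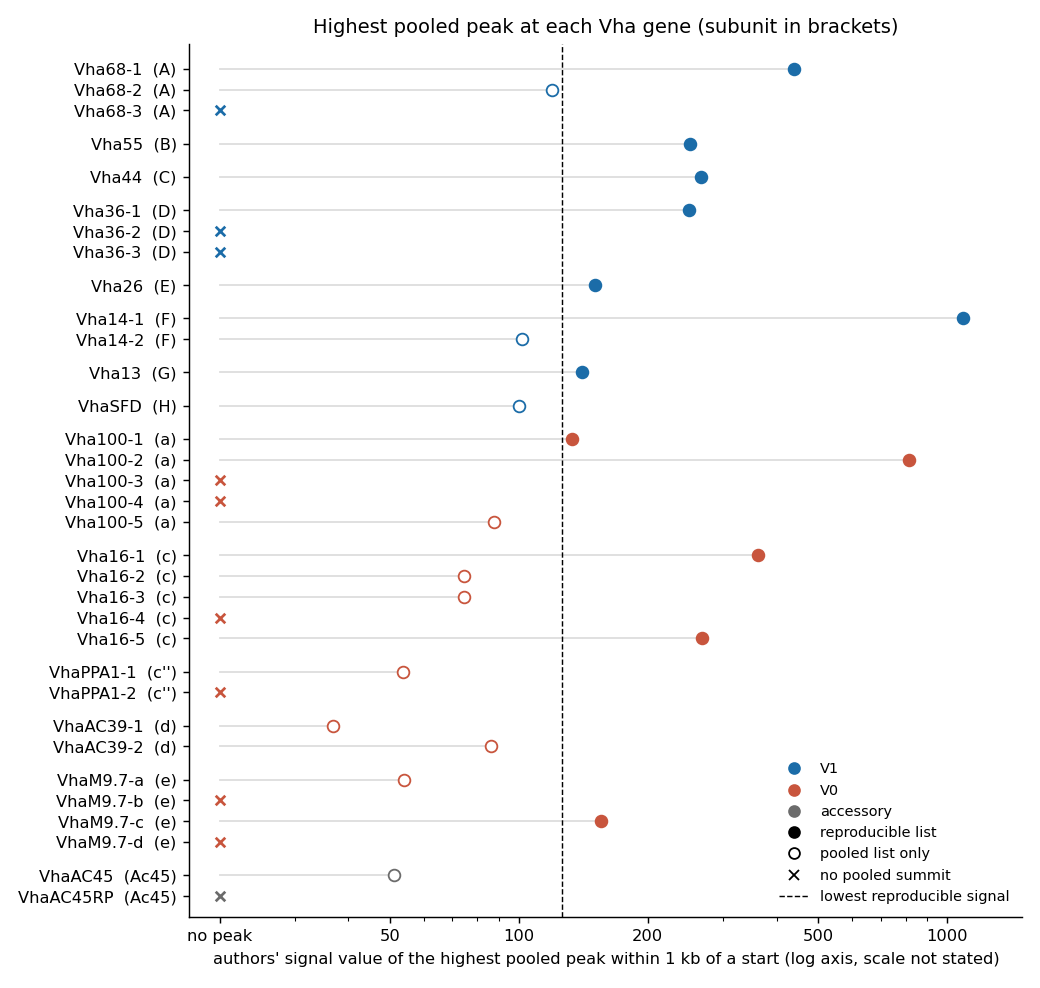
Authors' signal value of the highest pooled peak within 1 kb of a start, on a log axis, for the 33 Vha genes grouped by subunit, with V1, V0 and accessory genes in different colours. Filled points are in the reproducible list, open points are in the pooled list only, crosses have no pooled summit, and the dashed line is the lowest reproducible signal, 125.8. Vha14-1 (1092) and Vha100-2 (815.1) were the highest, and 12 of the 33 genes lie to the right of the line.

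Subunit A is the catalytic subunit, which binds and splits ATP, and its 3 genes lie on 2L. Vha68-1 (FBgn0265262, chr2L:13000770-13004107, minus strand) had the highest peak of the 3. Its reproducible peak, chr2L:13004128-13004383, had a signal of 440.3 and rank 1051, with the summit at 13004251, 144 bp upstream of the start in intergenic sequence. Replicate 1 held it at rank 822 with a signal of 197, and replicate 2 at rank 1375 with a signal of 238. Both replicates thus placed it well inside the range of the reproducible list. The opposite side of the summit faces mTor, the gene of the target of rapamycin kinase, which acts in nutrient signalling at the lysosome. Its start lies 229 bp from the summit and 373 bp from that of Vha68-1.

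Vha68-2 (FBgn0263598, chr2L:12974322-12978607, plus strand) had its highest pooled peak just outside the reproducible list, with a signal of 119.4 and rank 5983, 47 bp upstream of a start. The lowest reproducible signal was 125.8. In replicate 1 its highest peak had rank 4528 and a signal of 57.9, and in replicate 2 rank 6882 and a signal of 70.2. Replicate 1 alone therefore ranked it among its 5636 highest peaks, while replicate 2 did not. Vha68-3 lies 178 bp past Vha68-2 and had no pooled summit. Its only peak was in replicate 1, at rank 15189.

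Subunit B sits between the A subunits in the ATP-binding ring and has 1 gene. Vha55 (FBgn0005671, chr3R:12623762-12627829, minus strand) had a reproducible peak at chr3R:12627679-12628042 with a signal of 250.4 and rank 2443. The summit was 32 bp upstream of the start. Replicate 1 gave rank 1956 and a signal of 110, and replicate 2 rank 2644 and a signal of 151, so both replicates held it in the same part of their lists. Snx3, which encodes a sorting nexin of endosomes, starts on the opposite strand 202 bp from the Vha55 start.

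The central shaft is made of subunits D and F. Vha36-1 (FBgn0022097, chr2R:15541435-15542498, plus strand) was the gene for D with a reproducible peak, chr2R:15541300-15541473, at a signal of 249.5 and rank 2462. Its summit lay 61 bp upstream of the Vha36-1 start and 11 bp from the start of CG8187 on the opposite strand. The replicates differed more in rank here than for Vha55, with rank 4108 and a signal of 62.7 in replicate 1 and rank 2304 and a signal of 167 in replicate 2. Of the other D paralogues, Vha36-2 had 1 peak, in replicate 1 at rank 28171. Vha36-3 had none in any list.

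Vha14-1 (FBgn0262512, chr2R:15679426-15680084, minus strand), 1 of the pair of genes for F, had the highest signal of any Vha gene. Its peak at chr2R:15679004-15679414 had a signal of 1092 and rank 201. Replicate 1 held it at rank 160 with a signal of 467 and replicate 2 at rank 245 with a signal of 618. The peak was thus among the highest of both lists. The summit lay 863 bp downstream of the Vha14-1 start, which is past the end of this gene of 659 bp, and only 265 bp from the start of Gmppa, a GDP-mannose pyrophosphorylase gene. With the distance set to 500 bp, Vha14-1 no longer counted as having a peak. Its paralogue Vha14-2 had a pooled peak at rank 7150 with a signal of 102, 989 bp upstream, that only replicate 1 held.

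The peripheral stalks are formed by subunits E and G, and subunit C joins them to V0. Each of the 3 has 1 gene, and each of these genes had a reproducible peak. Vha44 (FBgn0287825, chr2R:16324813-16336637, minus strand), the gene for C, had its peak at chr2R:16336655-16336771 with a signal of 266.9 and rank 2250. The ranks in replicates 1 and 2 were 2384 and 2296, with signals of 96.4 and 168. Of the 14 peaks this was 1 of the most evenly ranked. The summit lay 76 bp upstream of the Vha44 start and 47 bp from 1 start of the facing gene Hmgs, an HMG-CoA synthase gene of the mevalonate pathway, and within a 5′ UTR of Hmgs transcripts.

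Vha26 (FBgn0283535, chr3R:5591763-5595356, plus strand), the gene for E, had a peak at chr3R:5591416-5591779 with a signal of 150.6 and rank 4569. Replicate 2 held it at rank 5180 with a signal of 88.8, and replicate 1 held no peak within 1 kb of the gene. This reproducible peak therefore had no counterpart in 1 of the 2 replicate lists. The summit was 165 bp upstream of Vha26 and 139 bp from noi, which encodes a splicing factor and starts 304 bp away on the opposite strand.

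Vha13 (FBgn0283536, chr3R:19643018-19644386, minus strand), the gene for G, had its summit 9 bp downstream of the start, in its own 5′ UTR. The peak, chr3R:19644195-19644558, had a signal of 140.4 and rank 4951. Replicate 2 held it at rank 4489 with a signal of 99.8, and replicate 1 at rank 6450 with a signal of 43.1. In replicate 1 the highest summit within 1 kb was a different one, at rank 4041 and 602 bp upstream. That position is toward Nup58, a nuclear pore gene whose start lies 640 bp from that of Vha13 on the opposite strand.

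Subunit H regulates the pump and has 1 gene, VhaSFD. It was the only V1 subunit type without a reproducible peak. Its pooled peak, 107 bp upstream of the start, had a signal of 100 and rank 7288. Replicate 2 alone held a peak near this gene, at rank 9078.

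Subunit a is the large membrane subunit along which protons pass, and 2 of its 5 genes had reproducible peaks. Vha100-2 (FBgn0028670, chr3R:18390323-18399169, minus strand) had 2. The higher, chr3R:18397071-18397367, had a signal of 815.1 and rank 367, the second highest of the Vha genes. Replicate 1 held it at rank 501 with a signal of 265 and replicate 2 at rank 304 with a signal of 551. Its summit lay 300 bp upstream of 1 annotated start of Vha100-2 and within a 5′ UTR of Vti1b, a vesicle SNARE gene on the opposite strand, 233 bp from a Vti1b start. The lower peak, chr3R:18399125-18399488, lay 138 bp upstream of another Vha100-2 start, with a signal of 190.6 and rank 3454. Its ranks in replicates 1 and 2 were 3458 and 3357, with signals of 71.7 and 126.

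Vha100-1 (FBgn0028671, chr3R:29131193-29137980, plus strand) encodes the neuronal form of subunit a, which acts in synaptic vesicles. Its peak at chr3R:29130891-29131254 had the lowest reproducible signal of the Vha genes, 133, at rank 5284. The summit was 120 bp upstream, 101 bp from the facing start of dgt6, an augmin subunit gene. Replicate 2 held it at rank 5378 with a signal of 86.4, and replicate 1 held none. Among the other 3 paralogues Vha100-5 had a pooled peak at rank 8478 with a signal of 87.7, 20 bp downstream of its start. Vha100-4 had a peak only in replicate 2, at rank 19157, and Vha100-3 had none in any list.

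The proteolipid ring is built from subunits c and c''. Among the 5 genes for c, Vha16-1 and Vha16-5 had reproducible peaks. Vha16-1 (FBgn0262736, chr2R:6625242-6633090, minus strand) had 2 that overlapped, with summits 97 and 298 bp upstream of the start. The nearer, chr2R:6633005-6633368, had a signal of 362.3 and rank 1459, and its ranks in replicates 1 and 2 were 1390 and 1489, with signals of 141 and 227. The farther, chr2R:6633206-6633569, had a signal of 163.9 and rank 4147. Replicate 2 held it separately at rank 4006 with a signal of 109, whereas in replicate 1 it overlapped only the nearer peak, with the summit 199 bp away. The nearest start of another gene, Trap1, was 2900 bp from the higher summit, so no other start lay within 1 kb. A further 2 reproducible summits lay inside Vha16-1 beyond 1 kb of a start, and 1 inside Vha13.

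Vha16-5 (FBgn0032294, chr2L:10736319-10737043, minus strand) had its peak at chr2L:10737234-10737408 with a signal of 268.4 and rank 2236. Replicate 2 held it at rank 1957 with a signal of 189, the highest rank of the 3 peaks that replicate 1 lacked. The summit was 279 bp upstream of Vha16-5 and only 23 bp from the facing start of CG12299. The only replicate 1 summit within 1 kb of Vha16-5 was 868 bp downstream of its start, at rank 3959. Vha16-2 and Vha16-3, which lie 985 bp apart on 3L, shared 1 pooled peak of rank 10251 and signal 74.4, 762 bp upstream of the former and 810 bp downstream of the start of the latter. Vha16-4 had none in any list. Of the pair for c'', VhaPPA1-1 had a pooled peak at rank 14689 and VhaPPA1-2 had none in any list.

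Among the 4 genes for the small membrane subunit e, VhaM9.7-c (FBgn0028664, chr3L:4186018-4186865, minus strand) had a reproducible peak at chr3L:4186717-4187080 with a signal of 155.8 and rank 4396. Its ranks were 4173 in replicate 1 and 4544 in replicate 2, with signals of 61.8 and 98.6. The summit lay 34 bp upstream of the start, in an intron of the overlapping genes Teh2 and CG18675. No start of another gene lay within 1 kb, since the nearest, that of Teh2, was 1124 bp away.

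VhaM9.7-b stood out among the e genes for the distance between the replicates. Replicate 2 held a peak 314 bp upstream of its start at rank 2656 with a signal of 150 and a −log10 q of 4.11. The nearest replicate 1 summit was 2540 bp away and the nearest pooled summit 2524 bp away. Of the 5636 highest replicate 2 peaks, 118 (2.09%) had no overlapping pooled peak. COX8, a cytochrome c oxidase subunit gene, starts on the opposite strand 415 bp from VhaM9.7-b. VhaM9.7-a had a pooled peak at rank 14659 and VhaM9.7-d had none in any list.

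Both genes for subunit d, which joins the ring to the shaft, had pooled peaks only, that replicate 2 alone held. VhaAC39-2 was at rank 8642 with a signal of 86.2, 107 bp upstream, and VhaAC39-1 at rank 22594 with a signal of 36.9, 205 bp downstream. Of the accessory genes, VhaAC45 had a pooled peak at rank 15524 and VhaAC45RP a replicate 2 peak only, at rank 26682. None of the peaks at the genes for c'', d and Ac45 was among the 5636 highest of its list.

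Comparing the sectors, 7 of 13 V1 genes (53.8%, 25.1 to 80.8) and 5 of 18 V0 genes (27.8%, 9.69 to 53.5) had a reproducible peak, beside 26.2% of all genes. The V0 share was close to that of all genes, and the V1 interval includes it. The 2 accessory genes had none. By subunit types the counts were 7 of 8 for V1 and 3 of 5 for V0. The sectors also differ in how many paralogues they hold. All 5 subunits with 1 gene are in V1, and 4 of these 5 genes had a reproducible peak (80.0%, 28.4 to 99.5), against 8 of 28 genes of subunits with several paralogues (28.6%, 13.2 to 48.7). The latter share was near the 26.2% of all genes. Counted for the nearest start only, the numbers were 2 of 5 (40%, 5.27 to 85.3) and 4 of 28 (14.3%, 4.03 to 32.7). Both intervals then include the 19.2% of all genes. Replicate 1 held a summit of any rank near 3 of the 5 genes and 16 of the 28. Replicate 2 held one near 5 of the 5 and 20 of the 28. Among genes of subunits with several paralogues, 3 of 8 V1 genes (37.5%, 8.52 to 75.5) and 5 of 18 V0 genes had a reproducible peak. The intervals overlap, and the difference between the sectors was not tested. Every called V1 gene had another gene starting upstream within 1 kb on the opposite strand, and VhaSFD had none. Among the called V0 genes, Vha16-1 and VhaM9.7-c had none. Of all genes with such a neighbour 43.0% had a reproducible peak, and of the others 16.7%. Sector, number of paralogues and such neighbours are not separated in these shares. Signals of the called genes covered like ranges, from 140.4 to 1092 with a median of 250.4 for the 7 V1 genes and from 133 to 815.1 with a median of 268.4 for the 5 V0 genes.

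Within subunits of several genes, 6 of the 9 had at least 1 paralogue with a reproducible peak, and no such subunit had one at every paralogue. Subunits a and c each had 2 of 5 genes with one, A and D 1 of 3, F 1 of 2 and e 1 of 4. By gene, 8 of the 28 members of such subunits had a reproducible peak (28.6%), near the 26.2% of all genes. A subunit with more genes has more chances to hold a peak, and preference among paralogues was not tested.

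In the pooled list, a summit lay near 23 of 33 Vha genes (69.7%, 51.3 to 84.4), against a background of 53.7%. These included 10 of 13 V1 genes, 12 of 18 V0 genes and 1 of 2 accessory genes, and every subunit type had at least 1 gene with a pooled peak. The 11 genes in the pooled list only had signals from 36.9 to 119.4, with a median of 74.4 and ranks from 5983 to 22594, and Vha16-2 and Vha16-3 share 1 of the 10 distinct highest peaks. At 7 of the 11 genes, or 6 of the 10 distinct peaks, the deposited q was at most 0.05. It was so for 44.5% of all pooled peaks, which include the reproducible ones. By gene, 19 of 33 Vha genes (57.6%) and 41.6% of all genes had a pooled peak under that cut. For the 21 genes without a reproducible peak the nearest reproducible summit was 1726 to 31873 bp from a start, with a median of 8441 bp.

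The replicates differed in how many Vha genes they covered. Replicate 1 held a summit near 19 of 33 (57.6%; background 52.5%) and replicate 2 near 25 of 33 (75.8%; background 57.3%). Both held one at 16 genes, replicate 1 alone at 3, replicate 2 alone at 9 and neither at 5. All 14 reproducible peaks at Vha genes overlapped a replicate 2 peak, as did 98.6% of all reproducible peaks. In replicate 1, 11 of 14 (78.6%) overlapped a peak, whereas 96.8% of all reproducible peaks did. The 3 without one were at Vha26, Vha100-1 and Vha16-5. With at least 50% of both intervals shared, replicate 1 held 9 of 14 (64.3%) beside 76.9% of all. With summits within 100 bp it held 10 of 14 (71.4%) beside 94.5% of all. The deposited −log10 q of the 11 in replicate 1 ranged from 1.95, at Vha13, to 3.90, and it was 4.11 for all 14 in replicate 2.

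**Figure D2:**
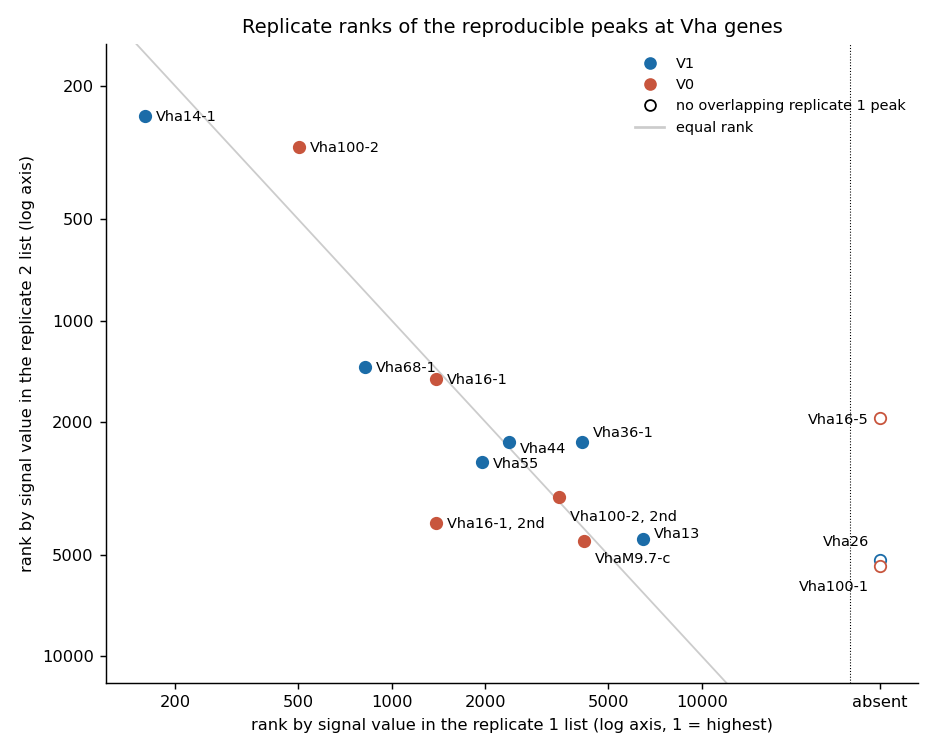
Rank by signal value in the replicate 1 list (x axis, log scale) and in the replicate 2 list (y axis, log scale, highest peaks at the top) for the 14 reproducible peaks at Vha genes, coloured by sector, with a line of equal rank; open points at the right have no overlapping replicate 1 peak. Vha14-1 is highest in both, at ranks 160 and 245, the 3 open points are Vha16-5, Vha26 and Vha100-1, and both Vha16-1 points have the same replicate 1 peak.

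The peaks lay close to starts, as did those of other genes. The nearest reproducible summit was a median of 108.5 bp from a start for the 12 called Vha genes, and 159 bp for all 3664 called genes. It was upstream at 10 of the 12 (83.3%), compared with 82.6% of all called genes. The median signal of the highest peak was 258.7, with a median rank of 2346, beside 272.2 and 2205 over all called genes. By these measures the called Vha genes were placed like the rest.

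Another gene often started within 1 kb of the same summit. This held for 11 of the 14 summits (78.6%), against 38.5% of the 3084 reproducible summits within 1 kb of any protein-coding start. Counted by gene, 10 of the 12 called Vha genes (83.3%) had such a summit, as had 61.6% of all called genes, and 10 of the 12 (83.3%) had a head-to-head neighbour, a gene starting upstream within 1 kb on the opposite strand, as had 59.3% of all called genes. The called proteasome genes were like the Vha genes in this, with such a summit at 13 of 16 (81.2%) and their own start nearest to a summit at 9 of 16 (56.2%). The called ATP synthase genes were not, with such a summit at 4 of 6 (66.7%) and their own start nearest at 6 of 6 (100%). None of these differences was tested. At 6 of the 12 called genes (50%) a summit had its nearest start at the Vha gene itself, compared with 73.3% of all called genes. These 6 were Vha68-1, Vha55, Vha13, Vha100-2, Vha16-1 and VhaM9.7-c. Counted for the nearest start only, 6 of 33 Vha genes had a peak (18.2%, 6.98 to 35.5), against a background of 19.2%. The excess of the Vha count over the background was thus not seen under that count.

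**Figure D3:**
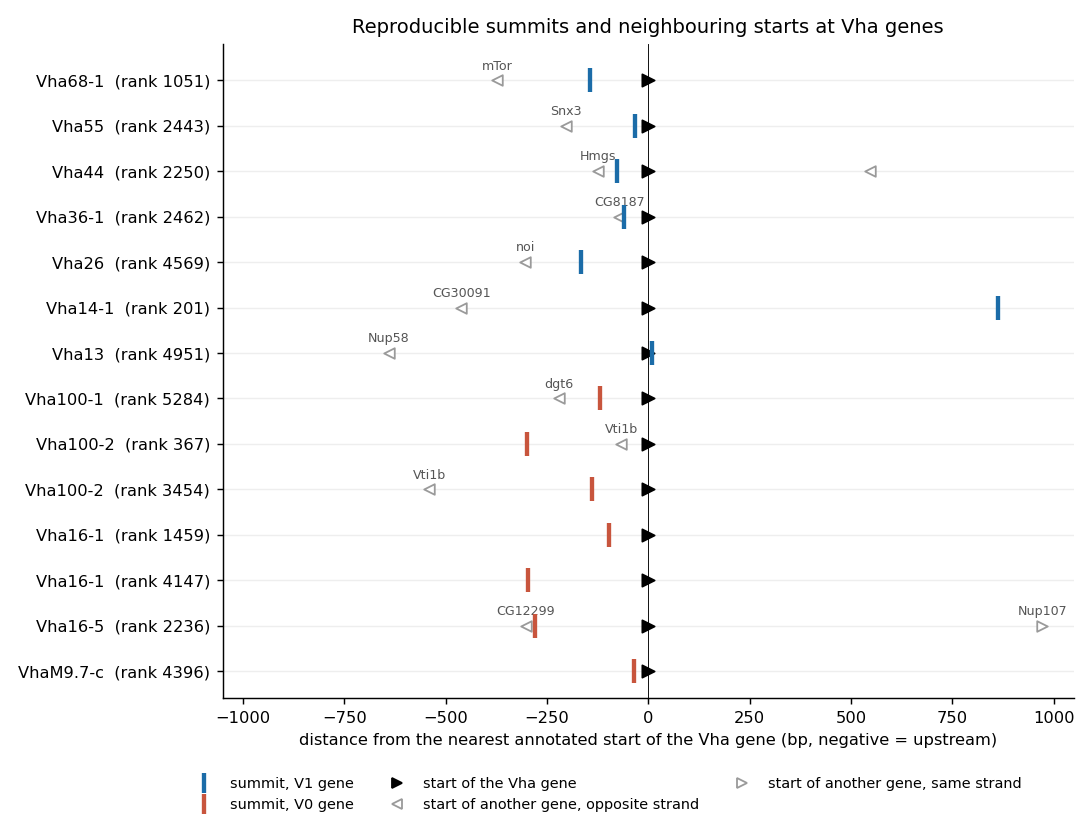
Distance in bp from the nearest annotated start of the Vha gene (x axis, negative is upstream, gene direction to the right) for each of the 14 reproducible summits (coloured bars), the Vha start (filled triangle) and starts of other genes within 1 kb (open triangles, pointing in their direction of transcription). At Vha36-1 the summit lies 11 bp from CG8187, and at Vha14-1 it lies 863 bp downstream of the start, while Vha16-1 and VhaM9.7-c have no other start in the window.

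The split into genes with and without a head-to-head neighbour was chosen after seeing the data. Such a neighbour was present for 14 of 33 Vha genes (42.4%) and for 36.2% of all protein-coding genes. Of the 14, 10 had a reproducible peak (71.4%, 41.9 to 91.6), against a background of 43.0% of head-to-head genes. Of the other 19 Vha genes, 2 had one (10.5%, 1.30 to 33.1), against 16.7%. Those 2 were Vha16-1 and VhaM9.7-c. The 4 head-to-head genes without a reproducible peak were Vha36-3, VhaM9.7-a, VhaM9.7-b and VhaAC45. At 8 of the 10 called head-to-head genes (80.0%) a summit lay between the paired starts, compared with 84.1% of called head-to-head genes in general. The exceptions were Vha14-1, whose summit lay nearest the Gmppa start, and Vha13, whose summit lay 9 bp downstream of its own start. Where a summit lay between the paired starts, the peak cannot be assigned to 1 of the 2 genes.

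The GC content of the 101 bases around the summits was a median of 45.0% for the 14 Vha peaks, with a range from 23.8% to 62.4%. The median of all 5636 reproducible peaks was 31.7%. The 14 Vha summits all lie within 1 kb of a start, as do only 3084 of the 5636. Position near a start and membership of the Vha genes are therefore not separated in these GC shares. Windows over 40% GC made up 8 of the 14 (57.1%) but 20.6% of all, and windows under 30% made up 4 of the 14 (28.6%) but 44.4% of all. The highest values were at Vha44 (62.4%) and Vha16-5 (55.4%).

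Motifs were searched on both strands of promoters, taken as 250 bases before to 50 after the most upstream start, and of the 101-base summit windows. Any E-box, CANNTG, was in 8 of the 14 windows (57.1%) and in 33.9% of all reproducible windows, a motif added after the data were seen. It overlaps the 3 named E-boxes below. The windows of all reproducible peaks include those more than 1 kb from a start, unlike the Vha windows. CATATG was in 2 of 14 windows (14.3%, all 3.83%), at Vha55 and Vha13, where it lies 64 and 8 bases upstream of the start. CAGCTG was in 2 of 14 (14.3%, all 3.55%), and CACGTG in 1 of 14 (7.14%, all 0.656%), that of Vha44. Of the motifs that are no E-box, GAGAG was in 3 of 14 windows (21.4%, all 8.96%) and TATAAA in 2 (14.3%, all 24.3%). TATCGATA (all 1.51%) and GGTCACACT (all 0.532%) were in 0 of the 14. In the Vha44 window CACGTG is the core of TCACGTGA, the M-box, 48 bases upstream, which 2 of all 5636 windows hold (0.0355%). The M-box is the type of site bound by MITF-family factors, regulators of lysosomal genes in mammals and, through Mitf, of vacuolar ATPase genes in the fly.

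In the promoters the shares were closer to those of all genes. CANNTG was in 27 of 33 (81.8%, all 77.2%), CATATG in 6 (18.2%, all 7.81%), CAGCTG in 8 (24.2%, all 17.6%), and CACGTG in 3 (9.09%, all 4.20%). TCACGTGA was in 1 promoter, that of Vha44 (3.03%, all 0.172%). The DREF site TATCGATA was in 2 (6.06%, all 9.36%), at Vha55 and VhaSFD, and Motif 1 of the fly core promoter, GGTCACACT, in 3 (9.09%, all 6.04%). The latter were Vha68-2, Vha26 and Vha100-1, and in Vha26 and Vha100-1 it begins at the same place, 2 bases upstream of the start. TATAAA was in 17 (51.5%, all 45.8%) and GAGAG in 9 (27.3%, all 29.7%). A match describes these letters only and shows no binding.

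Other genes of acidification and the lysosome, a list of 26 taken from known roles, had a reproducible peak at 6 (23.1%, 8.97 to 43.6; all genes 26.2%) and a pooled peak at 17 (65.4%, 44.3 to 82.8; all genes 53.7%). Both intervals include the share of all genes. The highest was at Lamtor3, a scaffold that holds the TOR kinase complex 1 at the lysosome, with a signal of 1742 and rank 72, 87 bp upstream of its start and 115 bp from fws. Next came CtsL1, a lysosomal protease, at rank 2605, on a summit it shares with the proteasome gene Rpn13, then car, a subunit of the HOPS tethering complex, at rank 2829, and Lamtor5 at rank 3107. Neither gene of the RAVE complex, which assembles V1 on V0, had a reproducible peak, nor did the gene of Mitf.

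Among other complexes of many subunits, 6 of 15 ATP synthase genes (40%, 16.3 to 67.7) and 16 of 48 proteasome genes (33.3%, 20.4 to 48.4) had a reproducible peak, and both intervals include the 26.2% of all genes. The highest ATP synthase peaks were at ATPsynE (rank 1514), ATPsynCF6 (2276), ATPsynO (4377) and ATPsynB (4631). The highest proteasome peaks were at Rpn3 (rank 1145), Rpn11 (1884), Rpn5 (2496) and Rpn13 (2605). The intervals of both complexes overlap that of the Vha genes, and the differences were not tested. With summits counted for the nearest start only, the ATP synthase count was the same 6 of 15, and the proteasome count was 9 of 48 (18.8%), beside 19.2% of all genes.

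**Figure D4:**
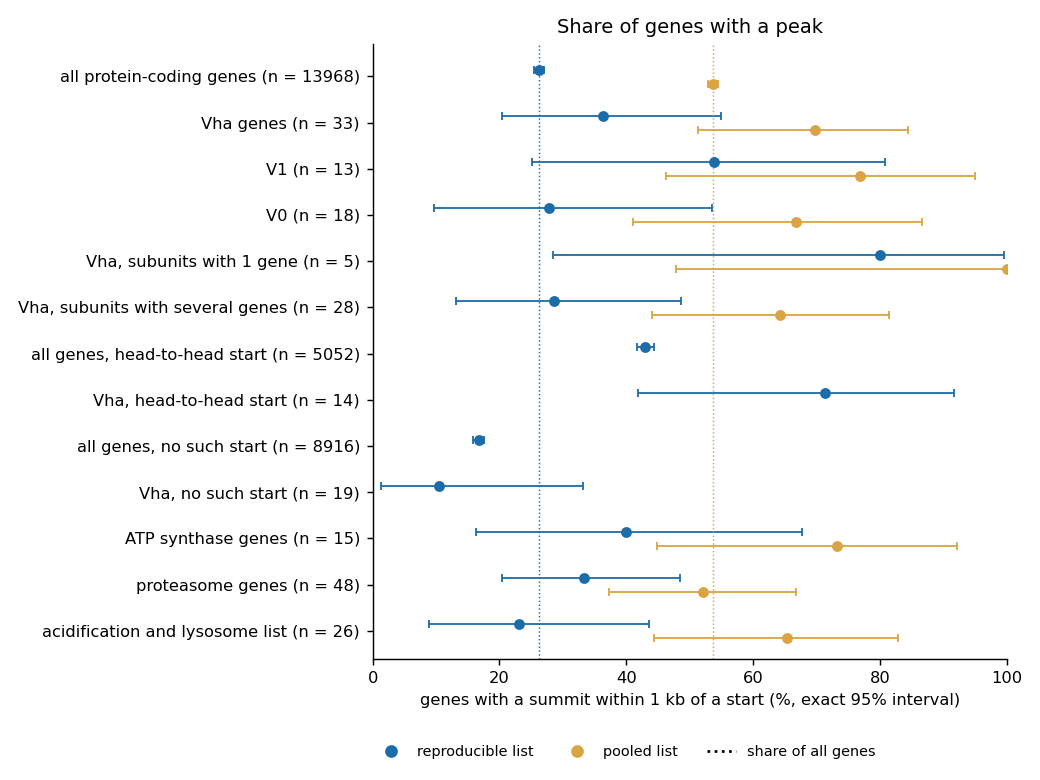
Share of genes, in percent, with a reproducible summit (blue) or a pooled summit (yellow) within 1 kb of a start, with exact Clopper-Pearson 95% intervals, for all protein-coding genes, the Vha genes and their subsets, and 3 other gene lists; dotted lines mark the shares of all genes, 26.2% and 53.7%. The Vha genes stand at 36.4% and 69.7%. For reproducible peaks the head-to-head Vha genes stand at 71.4%, beside 43.0% of all head-to-head genes. The other Vha genes stand at 10.5%, beside 16.7% of all genes with no such start.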

How the data were processed

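Chromatin immunoprecipitation sequencing of GFP-tagged Fer3 was deposited as narrowPeak lists on dm6, 1 per replicate, 1 of both replicates pooled, and 1 thresholded by the irreproducible discovery rate and derived from the other 3, per the deposited file descriptions. All lists share 1 control alignment, whose values were not used here. Which aligner and peak caller were used, and how they were set, is not stated in the sources used here. Each peak has the authors' signal value, never negative and of unstated scale, and a deposited −log10 q-value. The reproducible list is exactly the 5636 highest pooled peaks by signal. Its −log10 q was 4.09 throughout the Vha peaks, so ranks come from the signal. Depth is unknown and no condition was contrasted, so no test was run. Peaks and genes are not replicates.

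Starts are 5′ ends of protein-coding transcripts of Ensembl release 115 (BDGP 6.54). Arm lengths match those of RefSeq Release 6, and coordinates are 1-based on dm6. Of 35 vacuolar ATPase symbols listed by hand, 33 matched and 2 were not used. A replicate peak matched a reproducible one by at least 1 bp. Intervals are exact Clopper-Pearson 95% intervals. The age field holds no possible embryo age and was not used. The counting was tested on simulated peaks.

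Values are given for every Vha gene with a reproducible peak, for paralogues of these, and for up to 4 of the highest genes of each other list. Members and lists were chosen with earlier results of these data known. Alternatives changed distance, start rule, threshold, overlap and replicate. Calculations used Python 3.11.15, numpy 2.4.6, scipy 1.17.1 and matplotlib 3.10.9.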

Additional observations from a re-analysis of the deposited data

How the results depend on the processing

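Over 8 alternatives the count of Vha genes with a reproducible peak ranged from 6 to 15 around the 12 reported. The 6 were counted for the nearest start only (18.2%, all genes 19.2%) and the 15 within 2 kb (45.5%, all genes 32.1%). Under every alternative 4 genes had a peak: Vha68-1, Vha55, Vha100-2 and Vha16-1. At Vha100-2 this rested on different peaks. The peak of rank 367 is nearer a Vti1b start, and that of rank 3454 is not among the 2818 highest. Counting a summit for its nearest start only moved the most values: 6 Vha genes, 3 V1, 3 V0, 6 subunit types, 9 proteasome genes (all genes 19.2%) and 4 of 14 head-to-head Vha genes (28.6%, all head-to-head genes 24.8%). With the 2818 highest reproducible peaks, at which the share of all genes is 15.7%, the counts were 3 for V0 (16.7%), 2 for the acidification and lysosome list (7.69%), 2 for ATP synthase (13.3%) and 4 for the proteasome (8.33%). Vha genes with no head-to-head start then numbered 1 (5.26%, all such genes 9.13%). Within 2 kb the acidification list had 10 (38.5%, all genes 32.1%). With the 5636 highest peaks of replicate 1, Vha genes with no head-to-head start numbered 4 (21.1%, all such genes 16.5%). With those of replicate 2 they numbered 2 (10.5%, all such genes 16.8%). Replicate 1 alone gave 12 Vha genes (36.4%, all genes 25.6%), gaining Vha68-2 and Vha14-2 and losing Vha26 and Vha100-1. Of the 12, 10 were shared with those reported, but Vha13 and Vha16-5 only through other summits. Those lay 602 bp upstream of the Vha13 start (rank 4041) and 868 bp downstream of the Vha16-5 start (rank 3959). Replicate 2 alone gave 13 (39.4%, all genes 26.4%), adding VhaM9.7-b. In summit windows rather than promoters, the shares were 0% for DREF (all windows 1.51%), 0% for Motif 1 (0.532%), 14.3% for CAGCTG (3.55%), 7.14% for the M-box (0.0355%) and 14.3% for TATAAA (24.3%). Of the values compared, 84 stayed within 1.5-fold of the main value and 18 did not, and the cause was not tested. This margin takes no account of the share of all genes, which changed with the setting. The tally includes motif shares in summit windows beside promoters, which are different sequences. No paired analysis was possible because there is 1 group and nothing to pair. Depth limits cannot be given without read counts.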
